A study of Mus musculus with 6 samples.

Results

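The genes described here are 10 cell-surface molecules through which activated B cells signal to T cells or display their activation: *Cd80*, *Cd86*, *Cd40*, *Icosl*, *Cd274*, *Pdcd1lg2*, *Cd276*, *Vsir*, *Cd83* and *Cd69*. They were selected by gene name from a table of 55421 genes measured by RNA-seq in splenic B cells with and without hnRNPL, an RNA-binding protein that regulates splicing. The list was chosen on the normalized counts of *Cd80*, which were strongly higher in hnRNPL-deficient cells in these same libraries, so its change is given as a description without a test, and the other 9 genes were chosen as its relatives. Both groups carried *CD21-cre*, a cre under *Cr2* regulatory sequence whose activity is largely, but not wholly, restricted to mature B cells, and the *Rosa mT/mG* reporter, which turns cre-active cells GFP+. The WT group had no further allele, whereas the hnRNPL-deficient group was also *Hnrnpl F/F*, homozygous for a floxed *Hnrnpl*, with 3 libraries each and 1 mouse per library. All mice were on a C57BL6/J background, of either sex and older than 6 weeks. B cells purified from spleen were cultured for 24 h with 5 µg/ml LPS, a bacterial lipopolysaccharide, and 5 ng/ml IL-4, and GFP+ cells were then sorted. RNA was measured in bulk, so fewer cells of a type and less RNA per cell cannot be told apart.

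CD80 and CD86 are the B7 ligands that deliver costimulation to T cells through CD28 and are bound more tightly by the inhibitory receptor CTLA-4. CD40 receives the CD40L signal from helper T cells, and ICOSL engages ICOS on follicular helper T cells. PD-L1, encoded by *Cd274*, and PD-L2, encoded by *Pdcd1lg2*, restrain T cells through PD-1, and VISTA, encoded by *Vsir*, and B7-H3, encoded by *Cd276*, are B7-related proteins with checkpoint activity. CD83 and CD69 are not ligands of this kind but are early activation markers, of which CD83 stabilises MHC class II and CD86 at the surface and CD69 retains lymphocytes in tissue by opposing S1PR1.

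Libraries held between 40395186 and 75180749 reads on genes, with hnRNPL-deficient library 3 the shallowest, and between 24009 and 26283 genes detected. *Hnrnpl* itself was at 24371, 25580 and 24174 normalized counts (reads divided by a size factor per library) in WT libraries 1 to 3 and at 2178, 1519 and 1297 in the hnRNPL-deficient libraries, a mean of 6.74% of the WT level. *Xist*, transcribed from the inactive X chromosome, was high in 1 library of each group, WT 3 and hnRNPL-deficient 2. Sex was inferred from *Xist*, and the 4 libraries with low *Xist* are called male below. B cell identity was present in every library, with *Ms4a1*, which encodes CD20, at 38987 normalized counts or more, whereas 8 of 10 T and NK cell markers and 10 of 14 macrophage, dendritic cell and granulocyte markers had a mean under 10.

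Across the 10 genes, 9 averaged 10 normalized counts or more over the 6 libraries and entered the comparison of hnRNPL-deficient with WT cells, which was limma on log2(normalized count + 1) over all 17640 genes that passed this filter, with a pass set at an adjusted p under 0.1 and at least 1.5-fold. *Cd80* and *Vsir* were past this threshold as higher, that is 2 of 9, where 7.28% of all tested genes were, and *Pdcd1lg2* was lower, that is 1 of 9, where 4.08% were. Because *Cd80* set the choice of genes, nothing is read from its place in these counts. The values of the 2 groups did not overlap for 7 of the 9 genes, 4 higher and 3 lower, against 34.0% of all tested genes. *Cd80* is among the 4 by the choice of genes, and with libraries scaled to equal totals the count was 6. An adjusted p under 0.1 at any fold was reached by 6 of the 8 genes other than *Cd80*, against 18.0% of all genes, and for 4 of the 6 the change was under 1.5-fold. Of the 6, *Cd86*, *Cd40* and *Pdcd1lg2* went above 0.1 when some single libraries were left out. The median log2 fold change of the 9 was -0.02, beside -0.03 over all tested genes.

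**Figure D1:**
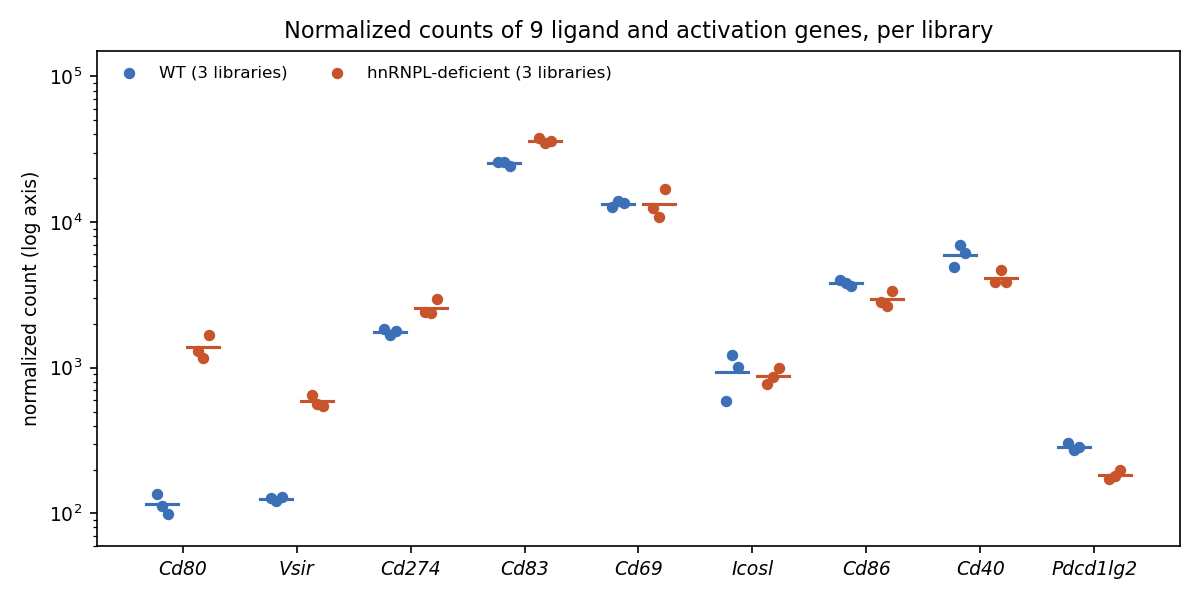
Normalized counts (log axis) of the 9 measured genes in each library, WT in blue and hnRNPL-deficient in orange, with a bar at each mean. *Cd80* and *Vsir* separate widely, whereas *Icosl* and *Cd69* overlap between the groups.

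On GRCm38, *Cd80* (chr16:38455561-38496335, plus strand) and *Cd86* (chr16:36603869-36666081, minus strand) lie 1.79 Mb apart. *Cd274* (chr19:29367455-29388095) and *Pdcd1lg2* (chr19:29410919-29471161) are direct neighbours on the plus strand, 22.8 kb apart. The other members are on separate loci, with *Cd40* at chr2:165055627-165072948 (plus), *Icosl* at chr10:78069302-78083913 (plus), *Vsir* at chr10:60346851-60372684 (plus), *Cd276* at chr9:58524298-58555437 (minus), *Cd83* at chr13:43784775-43803132 (plus) and *Cd69* at chr6:129267325-129275436 (minus). hnRNPL recognises CA-rich RNA, and a search of the longest protein-coding transcript of each member for 4 or more CA repeats in a row found them in *Cd80* and *Cd274* alone among the 10. The 2 sites are shown because they are the longest such runs in the members, each with 12 bases of lead and the first 18 bases of the run in capitals.
*Cd80* (chr16:38494696-38494725, plus strand): ttgcttgcacatCACACACACACACACACA
*Cd274* (chr19:29386707-29386736, plus strand): acgatgcctagaCACACACACACACACACA

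Both sites are in the 3′ UTR. In *Cd80* the run has 17 repeats and 34 bases (positions 1546 to 1579 of 3173 in transcript Cd80-202) and in *Cd274* it has 21 repeats and 42 bases (positions 2246 to 2287 of 3622 in Cd274-201). Runs of 4 or more repeats occurred in 17.5% of the 11532 tested protein-coding genes, that is in 2016, of which 188 (9.33%) rose and 101 (5.01%) fell in hnRNPL-deficient cells. Runs of 16 or more occurred in 1.74%, that is in 201 genes, of which 19 (9.45%) rose and 19 (9.45%) fell. Of all 11532 genes 7.98% rose and 4.85% fell, and the differences between these shares were not tested. A match of letters is a description and not a site of binding.

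Promoters, the 250 bases before the transcription start in RefSeq (GRCm38.p6), were held for 6 of the 10 members. Those of *Cd80* and *Vsir*, the 2 members that were higher by more than 4-fold, and of the *Cd274* and *Pdcd1lg2* neighbours, whose differences had opposite signs, are shown with every match to a searched motif in capitals.
*Cd80* (chr16:38458683-38458932, plus strand): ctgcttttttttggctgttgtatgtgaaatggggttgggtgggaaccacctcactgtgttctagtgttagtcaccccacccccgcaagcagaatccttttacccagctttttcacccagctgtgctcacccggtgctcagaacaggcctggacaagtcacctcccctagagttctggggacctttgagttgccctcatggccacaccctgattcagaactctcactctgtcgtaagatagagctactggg
*Vsir* (chr10:60346601-60346850, plus strand): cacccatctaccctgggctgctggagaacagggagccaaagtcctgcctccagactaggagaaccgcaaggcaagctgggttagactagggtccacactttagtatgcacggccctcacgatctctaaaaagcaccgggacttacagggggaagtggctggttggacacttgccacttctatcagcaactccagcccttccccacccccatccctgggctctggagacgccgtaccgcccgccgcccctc
*Cd274* (chr19:29367188-29367437, plus strand): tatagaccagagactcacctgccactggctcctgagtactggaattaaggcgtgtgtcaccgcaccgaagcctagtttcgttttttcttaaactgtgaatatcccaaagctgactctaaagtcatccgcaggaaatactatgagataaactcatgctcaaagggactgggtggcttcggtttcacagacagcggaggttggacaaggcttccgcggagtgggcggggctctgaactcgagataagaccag
*Pdcd1lg2* (chr19:29410669-29410918, plus strand): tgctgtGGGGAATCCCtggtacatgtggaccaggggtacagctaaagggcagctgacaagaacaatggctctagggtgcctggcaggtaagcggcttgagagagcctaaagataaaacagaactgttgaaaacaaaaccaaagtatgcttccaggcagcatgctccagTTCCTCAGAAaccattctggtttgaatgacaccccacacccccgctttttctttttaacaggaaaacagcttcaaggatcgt

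A set of 5 motifs was searched on both strands: an NF-kB site, a p53 half-site, the GAS element TTCNNNGAA, the STAT6 element TTCNNNNGAA and the E-box CACGTG. The *Cd80*, *Vsir* and *Cd274* windows held none of them. The *Pdcd1lg2* window held an NF-kB match 235 to 244 bases before the start and a STAT6 match 73 to 82 bases before it, and the *Icosl* window held an NF-kB match 102 to 111 bases before its start. Among 27025 promoters of the same length, 7.01% held the NF-kB motif, 5.86% the STAT6 motif, 7.18% the p53 half-site, 7.18% the GAS element and 6.05% the E-box. The RefSeq start of *Cd80* used here (38458933) lies downstream of the first annotated base of the gene in GENCODE, so the window covers only that start.

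*Cd80* stood at 136, 112 and 98.7 normalized counts in WT libraries 1, 2 and 3 and at 1294, 1164 and 1689 in the hnRNPL-deficient libraries. Every hnRNPL-deficient library was therefore far above every WT library, and hnRNPL-deficient library 3 was the highest. The means were 115 ± 18.9 and 1382 ± 273 (SD, n = 3), a ratio of 12.0, and the log2 fold change was 3.57. Behind these values were 117 to 129 reads per WT library and 1153 to 1435 per hnRNPL-deficient library. Leaving out any 1 library gave a log2 fold change between 3.41 and 3.69, a description of spread and not a test.

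The partner B7 ligand *Cd86* differed in the other direction, by much less, and did not pass the test. It was at 4030, 3813 and 3627 normalized counts in WT cells and at 2818, 2637 and 3365 in hnRNPL-deficient cells. Each hnRNPL-deficient value lay below each WT value, but hnRNPL-deficient library 3 came close to WT 3. The log2 fold change was -0.39 (SE 0.116, limma adjusted p = 0.0671), which is under the 1.5-fold minimum. Its limma adjusted p was 0.0315 without hnRNPL-deficient 3 and 0.136 to 0.191 without any other single library, while the direction stayed.

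Per kb of joined exons, a scale on which different genes can be compared, *Cd86* exceeded *Cd80* by 30.0-, 34.6- and 37.2-fold in WT libraries 1, 2 and 3. In the hnRNPL-deficient libraries the excess was 2.20-, 2.29- and 2.02-fold. *Cd80* thus made up 2.88% ± 0.309 (SD, n = 3) of the summed *Cd80* and *Cd86* level in WT cells and 31.6% ± 1.43 in hnRNPL-deficient cells. The sum of the pair was 1076 ± 60.2 normalized counts per kb in WT cells and 1176 ± 177 in hnRNPL-deficient cells, and its values overlapped between the groups. *Cd80* set these ratios and they carry no test.

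**Figure D2:**
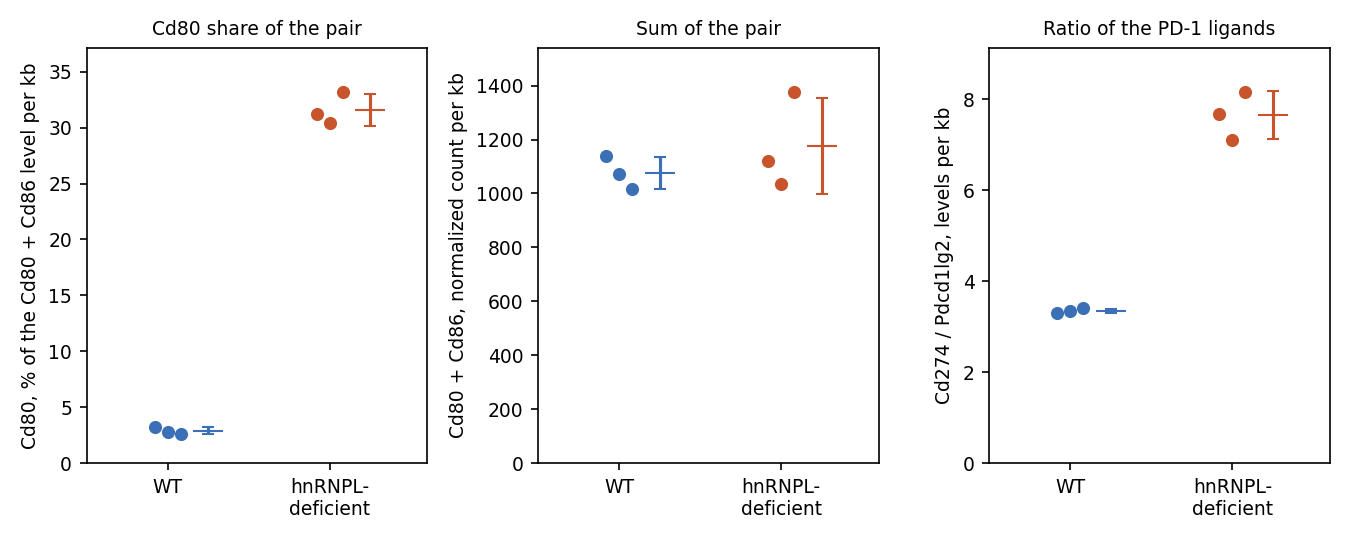
Per library, the share of *Cd80* in the *Cd80* plus *Cd86* level per kb (left), the sum of that pair in normalized counts per kb (middle) and the ratio of *Cd274* to *Pdcd1lg2* per kb (right), with the mean ± SD of 3 libraries beside the points. The *Cd80* share is 2.62 to 3.22% in WT and 30.4 to 33.2% in hnRNPL-deficient cells, the sum of the pair overlaps between the groups, and the *Cd274* to *Pdcd1lg2* ratio is 3.30 to 3.40 in WT and 7.11 to 8.15 in hnRNPL-deficient cells.

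*Vsir*, which encodes VISTA and is a known p53 target gene, rose. Its values were 126, 121 and 129 normalized counts in WT cells and 648, 566 and 548 in hnRNPL-deficient cells. The groups were widely separated, and the WT values were close together. The means were 126 ± 4.17 and 588 ± 53.2, a ratio of 4.68, with a log2 fold change of 2.21 (SE 0.157, limma adjusted p = 0.000203). Without any 1 library the log2 fold change was between 2.14 and 2.26 and the call held. *Vsir* lies inside *Cdh23* on the opposite strand, and *Cdh23* was at 11.0 normalized counts or fewer in every library.

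The 2 PD-1 ligands differed in opposite directions, and only *Pdcd1lg2* passed the test. *Pdcd1lg2* was at 304, 271 and 284 normalized counts in WT cells and at 171, 180 and 197 in hnRNPL-deficient cells, without overlap. Its means were 286 ± 16.8 and 183 ± 13.3, and it fell by 0.65 on the log2 scale (SE 0.164, limma adjusted p = 0.0391). This call depended on single libraries: it was lost without WT 2 (log2 fold change -0.69, adjusted p = 0.104), WT 3 (-0.65, 0.134), hnRNPL-deficient 1 (-0.60, 0.111) or hnRNPL-deficient 2 (-0.63, 0.103) in limma, while the direction stayed.

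*Cd274*, the upstream neighbour, was at 1856, 1672 and 1786 normalized counts in WT cells and at 2430, 2360 and 2972 in hnRNPL-deficient cells. Here all hnRNPL-deficient values were the higher ones. The log2 fold change was 0.54 (SE 0.119, limma adjusted p = 0.0240), a 1.45-fold difference that missed the 1.5-fold minimum. It passed that minimum without hnRNPL-deficient library 2 (0.60, limma adjusted p = 0.0407) and with libraries scaled to equal totals (0.59, limma adjusted p = 0.0232). The ratio of *Cd274* to *Pdcd1lg2* per kb was 3.35 ± 0.0479 (SD, n = 3) in WT cells and 7.65 ± 0.522 in hnRNPL-deficient cells.

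Antisense transcripts overlap both PD-1 ligand genes. Within *Cd274*, *Gm36043* was at 11.6, 13.0 and 19.1 normalized counts in WT cells and at 24.3, 32.3 and 48.0 in hnRNPL-deficient cells (log2 fold change 1.18, SE 0.380, limma adjusted p = 0.0827), a call that was lost without any of WT 1 (adjusted p = 0.170), WT 2 (0.197), WT 3 (0.126), hnRNPL-deficient 2 (0.165) or hnRNPL-deficient 3 (0.198). *A930007I19Rik*, across *Pdcd1lg2*, differed by 0.90 on the log2 scale (limma adjusted p = 0.152). The study counted reads by strand, and how completely this kept sense and antisense reads apart was not tested.

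*Cd40* and *Icosl* receive or answer T cell help. *Cd40* was at 4914, 6922 and 6116 normalized counts in WT cells and at 3874, 4714 and 3873 in hnRNPL-deficient cells. The groups did not overlap, but WT 1 and hnRNPL-deficient 2 were almost at the same level. The log2 fold change was -0.52 (SE 0.144, limma adjusted p = 0.0533), under the 1.5-fold minimum, and it passed this minimum without WT 1 (-0.65, limma adjusted p = 0.0209) or without hnRNPL-deficient 2 (-0.61, limma adjusted p = 0.0557). Without WT 2, WT 3, hnRNPL-deficient 1 or hnRNPL-deficient 3 the limma adjusted p of *Cd40* was 0.131 to 0.166, while the direction stayed.

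*Icosl* was at 588, 1216 and 1016 normalized counts in WT cells and at 775, 866 and 1001 in hnRNPL-deficient cells. The WT values were the more scattered, and the hnRNPL-deficient values lay among them. Its log2 fold change was -0.04 with a 95% interval from -0.61 to 0.54 (limma adjusted p = 0.941), so a 1.5-fold lower level is within the interval. *Cd276* could not be compared, since it had 0 to 3 reads in each library, and in hnRNPL-deficient library 3, which had none, 3 reads would have given 4.11 normalized counts.

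The activation markers differed between themselves. *Cd83* was at 25783, 25689 and 24279 normalized counts in WT cells and at 37778, 34884 and 36097 in hnRNPL-deficient cells. It was the most abundant member, and the groups were clearly apart. Its log2 fold change was 0.52 (SE 0.0910, limma adjusted p = 0.00961), under the 1.5-fold minimum, and it passed the minimum under quantile normalization (0.65, limma adjusted p = 0.00236).

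*Cd69* was at 12652, 13943 and 13423 normalized counts in WT cells and at 12449, 10811 and 16923 in hnRNPL-deficient cells. The hnRNPL-deficient values surrounded those of WT. The log2 fold change was -0.02 with a 95% interval from -0.38 to 0.34 (limma adjusted p = 0.953), an interval that excludes a 1.5-fold change in either direction.

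**Figure D3:**
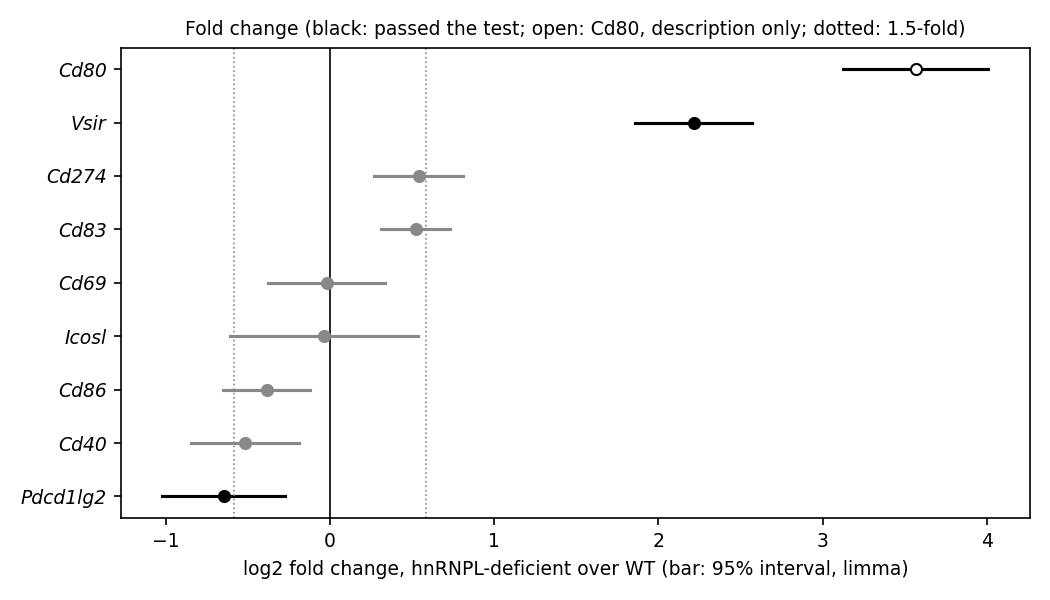
Log2 fold change of each gene in hnRNPL-deficient over WT cells with its 95% interval from limma, n = 3 libraries per group. Black marks genes past the test, and dotted lines mark 1.5-fold. The open point marks *Cd80*, which was chosen for this change, so the point and its interval are a description only. *Cd80* (3.57) and *Vsir* (2.21) stand far to the right, *Pdcd1lg2* (-0.65) lies past the lower line, and the other 6 lie between the lines.

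Levels per kb of exon placed the genes in an order. WT cells had *Cd83* at 9817 ± 328 normalized counts per kb (SD, n = 3), *Cd69* at 2049 ± 99.8, *Cd40* at 1757 ± 297, *Cd86* at 1044 ± 55.1 and *Cd274* at 489 ± 25.6. Below these came *Icosl* at 203 ± 69.4, *Pdcd1lg2* at 146 ± 8.57, *Cd80* at 31.1 ± 5.09, *Vsir* at 25.0 ± 0.832 and *Cd276* at 0.535 ± 0.372. Neighbours in this order whose libraries overlapped on joined exon length were *Cd69* with *Cd40* and *Icosl* with *Pdcd1lg2*. *Cd69* had 6509 bases of joined exons, against 1687 in its longest protein-coding transcript, so its level per kb depends on the length used. In hnRNPL-deficient cells *Cd80* was at 373 ± 73.8 per kb, which moved it from place 8 to place 6, above *Icosl* (191 ± 24.5). *Vsir*, at 117 ± 10.6, was above *Pdcd1lg2*, at 93.2 ± 6.79, and *Cd86* (803 ± 103) overlapped *Cd274* (714 ± 92.5). The WT order was the same with the longest transcript of any type as the length (4968 bases for *Cd69*) and without each WT library in turn.

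**Figure D4:**
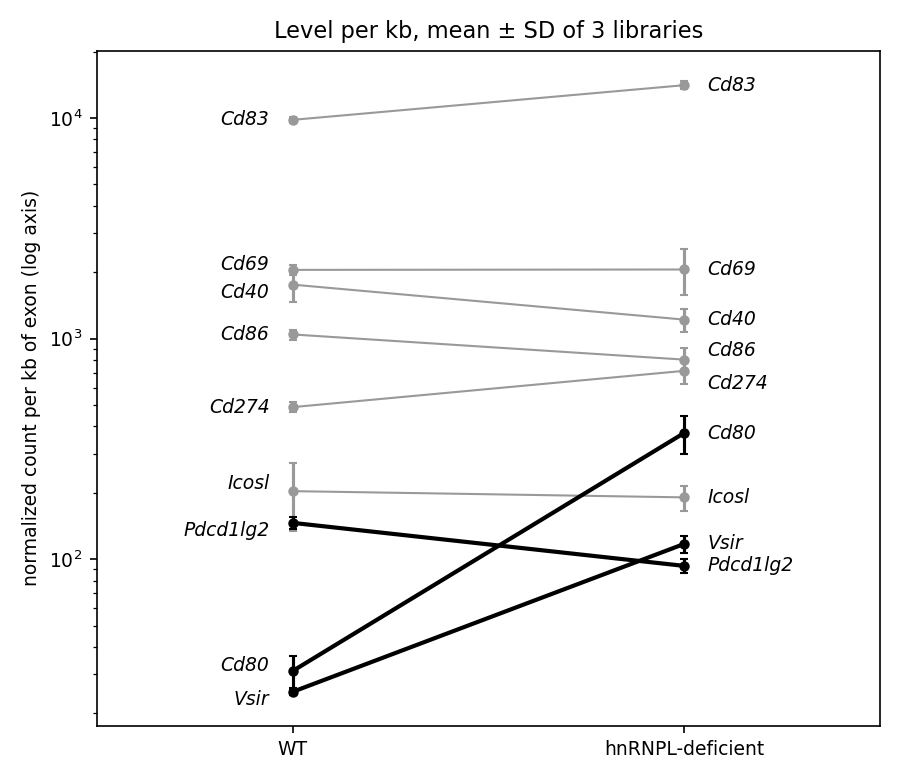
Normalized count per kb of exon (log axis) of 9 genes in WT and hnRNPL-deficient cells, mean ± SD of 3 libraries, with *Cd80*, *Vsir* and *Pdcd1lg2* in black. *Cd80* goes from 31.1 to 373, past *Pdcd1lg2* and *Icosl*, and *Vsir* goes from 25.0 to 117, past *Pdcd1lg2*.

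The genes whose 6 values ran most like those of *Cd80*, by the root mean square difference of log2 values after subtraction of each WT mean among genes averaging 50 normalized counts or more, were *Inka2* (difference 0.195), *Psrc1* (0.317), *Cdkn1a* (0.330), *Gm14167* (0.348) and *D830024N08Rik* (0.372), over 6 libraries. *Cdkn1a*, which encodes the cell cycle inhibitor p21, was at 440, 553 and 421 normalized counts in WT cells and at 4739, 5193 and 4376 in hnRNPL-deficient cells. *Inka2* was at 107, 87.3 and 88.7 and then at 1231, 1151 and 1129. *Gm14167* and *D830024N08Rik* averaged 13.4 and 8.20 normalized counts in WT cells and met the minimum of 50 only through the hnRNPL-deficient group. A large step between the groups, like that of *Cd80*, follows from how these 5 genes were picked.

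Neighbouring genes were compared in the same way. Beside the counts of calls here and in the lists below, 7.28% of all tested genes were higher and 4.08% lower. Within 200 kb of *Cd80*, 8 of 16 annotated genes were tested and 1 rose, *Cox17*, a copper chaperone of the respiratory chain, by 0.69 on the log2 scale (SE 0.210, limma adjusted p = 0.0704). That call was lost without WT 1 (adjusted p = 0.160), WT 3 (0.205), hnRNPL-deficient 1 (0.124) or hnRNPL-deficient 3 (0.170). Near *Cd274* and *Pdcd1lg2*, 7 of 8 genes were tested and none passed apart from the antisense *Gm36043*. *Jak2*, a kinase of cytokine receptors 54.4 kb from the pair, differed by 0.43 on the log2 scale (SE 0.0894, limma adjusted p = 0.0190) and *Plgrkt* by 0.43 (SE 0.120, limma adjusted p = 0.0544), both under 1.5-fold.

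Among other ligands for T cells, members of the TNF family changed in both directions. *Tnfsf8*, which encodes CD30L, was at 8.12, 14.7 and 9.94 normalized counts in WT cells and at 793, 552 and 657 in hnRNPL-deficient cells (log2 fold change 5.83, SE 0.279, limma adjusted p = 3.18e-05). *Tnfsf4*, which encodes OX40L, was at 2.32, 1.73 and 4.59 and then at 77.5, 76.7 and 83.6 normalized counts. Both were low in WT cells and clearly present in every hnRNPL-deficient library. The WT values of *Tnfsf4* rest on 2, 2 and 6 reads, and it passed the filter on low values only through the hnRNPL-deficient group, so it is given by its values with no p. Its fitted log2 fold change depends on the pseudocount, at 4.44 with a pseudocount of 1 and 3.44 with one of 5. *Tnfsf9*, which encodes 4-1BBL, fell by 0.71 (SE 0.210, limma adjusted p = 0.0627), a call that was lost without any 1 of the 6 libraries (limma adjusted p from 0.102 to 0.156). Of the 6 genes of this list 3 passed the filter apart from *Tnfsf4*, of which *Tnfsf8* rose and *Tnfsf9* fell.

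Of 10 other B7 and butyrophilin genes, 2 were tested and neither passed (*Btnl1* -0.42, limma adjusted p = 0.567, and *Btnl2* -0.35, limma adjusted p = 0.313). Of 14 other checkpoint and adhesion ligands, 11 were tested and 1 rose, with a median of -0.14. This was *Lgals3*, which encodes galectin-3, at 22.0, 30.3 and 18.4 normalized counts in WT cells and 55.9, 58.6 and 42.5 in hnRNPL-deficient cells (log2 fold change 1.13, SE 0.314, limma adjusted p = 0.0524). The call was lost without WT 1 (adjusted p = 0.101), WT 3 (0.176), hnRNPL-deficient 1 (0.132) or hnRNPL-deficient 2 (0.149). The abundant *Lgals9*, encoding galectin-9, and *Icam1*, an adhesion ligand of LFA-1, were not past the test (0.18, limma adjusted p = 0.265, and -0.32, limma adjusted p = 0.107).

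Receptors of these ligands are mostly T cell genes, and 5 of 11 were tested, of which 2 rose and 1 fell, where 7.28% and 4.08% of all tested genes did. *Ctla4*, the inhibitory receptor for CD80 and CD86, rose from 22.0, 28.5 and 26.0 to 48.7, 70.7 and 63.0 normalized counts (log2 fold change 1.21, SE 0.287, limma adjusted p = 0.0313), a call lost without WT 3 (adjusted p = 0.104) or hnRNPL-deficient 2 (0.106). *Tigit*, an inhibitory receptor for PVR, rose by 0.70 (SE 0.156, limma adjusted p = 0.0241), and by 0.58, under the 1.5-fold minimum, without WT 3. *Lag3*, an inhibitory receptor for MHC class II, fell by 1.07 (SE 0.333, limma adjusted p = 0.0748), a call lost without WT 1, WT 2, WT 3, hnRNPL-deficient 1 or hnRNPL-deficient 3 (limma adjusted p from 0.126 to 0.176). *Btla*, the receptor for HVEM that B cells express, was at 4174 or more in every library and did not pass (0.27, limma adjusted p = 0.129).

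**Figure D5:**
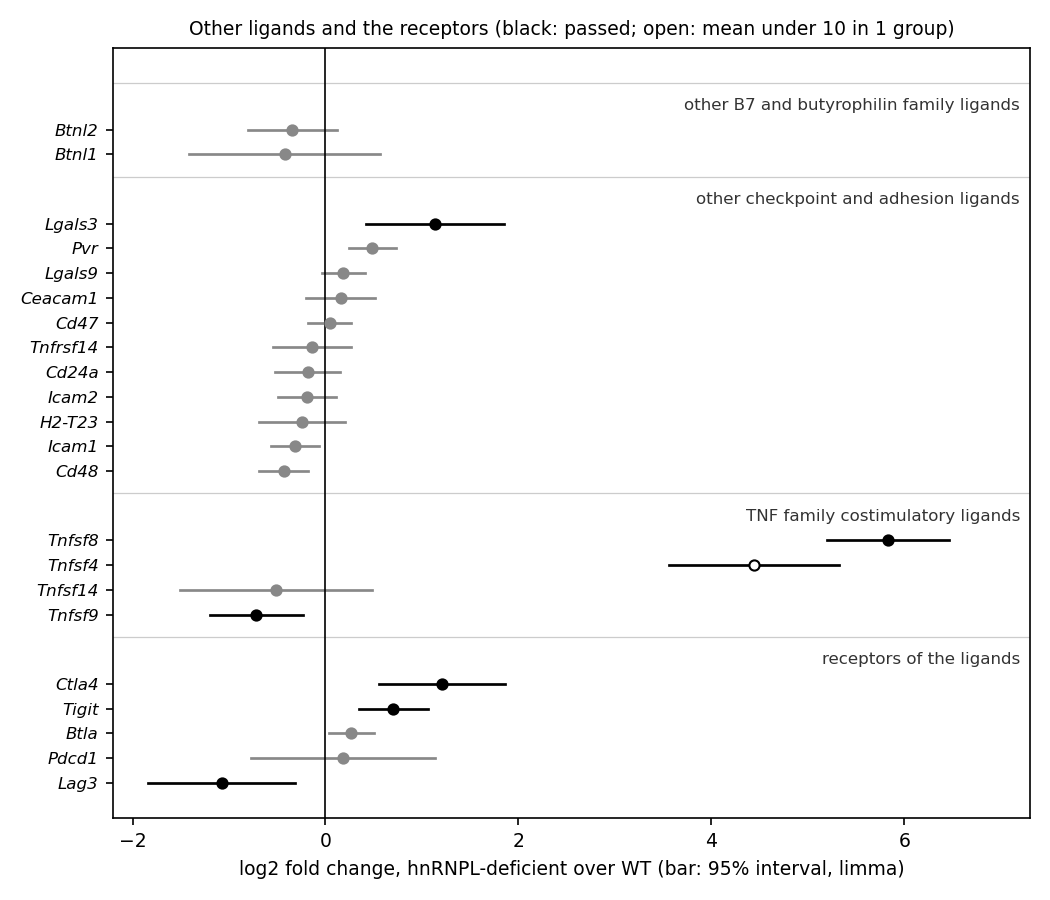
Log2 fold change, hnRNPL-deficient over WT, with its 95% interval from limma (n = 3 libraries per group), for the tested genes of 4 lists of ligands and receptors; black marks genes past the test. The open point marks *Tnfsf4*, which passed the filter on low values only through the hnRNPL-deficient group; *Tnfsf8* (5.83) lies furthest to the right, whereas the other B7 and butyrophilin genes and all checkpoint and adhesion ligands but *Lgals3* did not pass.

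No gene of CD40 signalling passed among 17 tested, with a median log2 fold change of -0.21. At an adjusted p under 0.1 were 3 of the 17, against 18.0% of all tested genes. The nearest was *Tnfaip3*, encoding the NF-kB inhibitor A20, at -0.54 (SE 0.0987, limma adjusted p = 0.0117), which passed the 1.5-fold minimum without hnRNPL-deficient 1 (-0.62, limma adjusted p = 0.0209). *Nfkb1*, *Rel* and *Birc3*, the other abundant genes of the list, were at -0.21, 0.16 and 0.22. Of 17 transcription factors and kinases linked to B7 genes, 2 rose and 1 fell, with a median of -0.05. *Bhlhe41*, a transcriptional repressor, rose by 0.99 (SE 0.145, limma adjusted p = 0.00469). *Bcl6*, a repressor required for germinal centre B cells, rose by 0.64 (SE 0.116, limma adjusted p = 0.0111), and without WT 1 by 0.56, under the minimum. *Zbtb32* fell by 0.87 (SE 0.191, limma adjusted p = 0.0236).

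Genes of surface turnover of these proteins, among them ubiquitin ligases and sheddases, gave 1 call among 10 tested, with a median of -0.01. *Cmtm4*, which protects PD-L1 from degradation, fell by 0.80 (SE 0.219, limma adjusted p = 0.0501), a call lost without WT 1, WT 2, WT 3, hnRNPL-deficient 2 or hnRNPL-deficient 3 (limma adjusted p from 0.112 to 0.130). The sheddase *Adam10* was at -0.24 (limma adjusted p = 0.295). Of 12 other surface activation markers 2 rose and 2 fell, with a median of -0.11. *Fas*, the death receptor, rose from 267, 267 and 240 to 511, 472 and 583 normalized counts (log2 fold change 1.01, SE 0.152, limma adjusted p = 0.00529) and *Ly6a*, encoding Sca-1, fell by 0.77 (SE 0.0860, limma adjusted p = 0.00162). *Cd38* rose by 0.91 (SE 0.265, limma adjusted p = 0.0611), a call lost without WT 2, WT 3, hnRNPL-deficient 1 or hnRNPL-deficient 3 (limma adjusted p from 0.142 to 0.186). *Tfrc*, the transferrin receptor, fell by 0.65 (SE 0.175, limma adjusted p = 0.0473), and was not past the test without WT 1 (-0.45), hnRNPL-deficient 2 (limma adjusted p = 0.122) or hnRNPL-deficient 3 (limma adjusted p = 0.118).

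Markers of cells that could carry these ligands were read beside the members. Macrophages and dendritic cells express *Cd80*, and the summed level of 14 of their and granulocyte markers was 735 to 782 normalized counts in WT libraries and 1686 to 1805 in hnRNPL-deficient libraries. Most of that difference was *Adgre1*, encoding F4/80, at 236, 282 and 315 and then 1217, 1337 and 1369 (log2 fold change 2.24, SE 0.148, limma adjusted p = 0.000139). *Xcr1* was at 8.12, 9.51 and 9.18 and then at 21.6, 24.2 and 27.4, and it passed the filter on low values only through the hnRNPL-deficient group, so no p is given. By contrast, *Itgax*, *C1qa*, *Siglech*, *Clec9a* and *S100a8* were at 0 in all 6 libraries, *Lyz2* and *Cd14* were at 2.02 or fewer, *Csf1r* was at 6.85 or fewer, and *Flt3* differed by -0.14 (limma adjusted p = 0.575).

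Among B cell subset markers, 8 general B cell genes gave no call, with 5 at an adjusted p under 0.1, against 18.0% of all tested genes, and a median of 0.29. Of 6 marginal zone markers 2 rose, *Cd1d1*, which encodes the lipid-presenting CD1d, by 1.62 (SE 0.281, limma adjusted p = 0.00943) and *Cr2*, which encodes CD21, by 0.85 (SE 0.225, limma adjusted p = 0.0444), and *Dtx1*, a Notch pathway gene, fell by 1.94 (SE 0.183, limma adjusted p = 0.000781). The *Cr2* call was lost without WT 2 (adjusted p = 0.125), WT 3 (0.143) or hnRNPL-deficient 3 (0.110). Of 4 tested B-1 cell markers *Bhlhe41* and *Spn* rose (*Spn*, which encodes CD43, by 0.97, SE 0.139, limma adjusted p = 0.00432) and *Zbtb32* fell. The study purified B cells either by removing CD43+ cells or with an isolation kit, and does not state which for these libraries. The memory B cell list holds *Cd80*, *Pdcd1lg2* and *Zbtb32*, so its 1 higher and 2 lower genes are those already described. Plasma cell markers gave 1 call among 5, *Jchain*, which fell by 2.31 (SE 0.633, limma adjusted p = 0.0509) and was not past the test without WT 1, WT 2, hnRNPL-deficient 2 or hnRNPL-deficient 3 (limma adjusted p from 0.111 to 0.148). Of T and NK cell markers 2 passed the filter on low values, of which *Cd8b1* did so only through the WT group, at 30.2, 25.1 and 31.4 normalized counts in WT cells and 4.51, 15.1 and 5.48 in hnRNPL-deficient cells, and is given with no p. Red cell and platelet markers gave no call among 2. The part of subset composition in the values of the members was not tested.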

How the data were processed

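RNA-seq of sorted GFP+ splenic B cells was analysed for 3 WT and 3 hnRNPL-deficient libraries, grouped by the submitters' labels.  The authors trimmed reads with fastp 0.23.1, aligned them to mm10 with STAR 2.7.9a, counted them per gene by strand with featureCounts and divided counts by DESeq2 1.38.2 size factors. The deposited values are these normalized counts, a signal on a scale shared by all libraries. The authors' deposited columns of fold changes, scores and p-values were not used.

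In each library 100% of values were whole reads within 0.01 of a read. The main test was limma 3.58.1 in R 4.3.3, with a mean-variance trend, on log2(normalized count + 1) for genes averaging 10 or more, Benjamini-Hochberg adjusted over 17640 genes. On this scale changes of low genes are understated. An exact two-sided permutation test of 3 against 3 cannot give a p under 0.1, so none was run. edgeR 4.0.16 (quasi-likelihood, TMM) and DESeq2 1.42.0 were alternatives on the reads of 5 libraries; the reads of hnRNPL-deficient library 2 were not accepted by the automatic test for whole reads, as the value of 1 read is near 1. On simulated data with 200 changed genes among 17640, limma recovered 67 at 1.5-fold, 169 at 2-fold and 194 at 4-fold. There were 9, 21 and 15 false calls. A gene counted as recovered or false at an adjusted p under 0.1 without a fold minimum, and all genes had the same dispersion.

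Loci, exons and transcripts came from GENCODE vM21 on GRCm38, which matched 55240 of 55421 genes by identifier (a later GENCODE release was used by the study), and promoters from RefSeq. Levels per kb used joined exon length. Named genes are the 10 members, *Hnrnpl*, called and abundant genes of the lists, the 5 genes most like *Cd80* and genes beside the loci; *Xist*, *Csf1r*, *Lyz2*, *Cd14*, other markers at 0 and *Cdh23* were added as checks. The members, lists and tests were chosen with earlier results of these data known. Splicing and other cell types were not analysed here.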

Additional observations from a re-analysis of the deposited data

How the results depend on the processing

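In the simulation above, limma recovered 67 of 200 genes changed by exactly 1.5-fold, a size at the fold minimum itself, so members that did not pass may still differ. *Cd80* (log2 fold change 3.41 to 3.71 over all alternatives) and *Vsir* (2.14 to 2.26 without 1 library, 2.27 with equal totals) kept their direction and size under every alternative. Apart from *Cd80*, which the choice of genes fixed, *Vsir* kept its call in every alternative, and *Cd274* or *Cd83* was added in some, so that 2 or 3 members were called higher. The number of members called lower was 1, and ranged from 0 to 2 when 1 library was left out, was 2 by DESeq2 on 5 libraries, and was 0 at an adjusted p under 0.05 and 2-fold, and 0 in the 4 libraries of male mice.

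*Pdcd1lg2* ranged from -0.70 to -0.60 without 1 library and lost its call by edgeR on 5 libraries (-0.64), at an adjusted p under 0.05 and 2-fold (-0.65) and in the 4 libraries of male mice (-0.64). *Cd274* passed with equal totals (0.59), by edgeR (0.61) and by DESeq2 (0.62) on 5 libraries, and ranged from 0.44 to 0.60 without 1 library. *Cd40* passed by edgeR (-0.64) and by DESeq2 (-0.62), and ranged from -0.65 to -0.41 without 1 library. Its limma adjusted p was 0.131 to 0.166 without WT 2, WT 3, hnRNPL-deficient 1 or hnRNPL-deficient 3, and 0.110 under quantile normalization. *Cd83* passed under quantile normalization (0.65). *Cd86* ranged from -0.49 to -0.31 without 1 library, and its limma adjusted p was 0.118 with equal totals and 0.138 under quantile normalization. *Icosl* changed sign with equal totals (0.018) and in the male libraries (0.058), and ranged from -0.34 to 0.18 without 1 library. *Cd69* changed sign with equal totals (0.036), under quantile normalization (0.13), by edgeR (0.14), by DESeq2 (0.15) and in the male libraries (0.13), and ranged from -0.20 to 0.12 without 1 library. The causes were not tested. Neither of these last genes passed a test in any alternative.

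Over all genes, 1284 were higher and 719 lower. The counts were 610 and 216 at an adjusted p under 0.05 and 2-fold, and ranged from 850 to 1124 higher and 483 to 695 lower without 1 library. The median log2 fold change of all genes was -0.03, and 0.03 with equal totals.

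With the replicate number as a block, 1755 genes were higher and 1018 lower, and the members' counts stayed at 2 higher and 1 lower. Samples of the same number correlated by 0.43, 0.32 and 0.07, and these values do not settle whether the numbers mark pairs. Each hnRNPL-deficient library correlated best with the WT library of its own number, but WT 3 correlated best with hnRNPL-deficient 2 (0.31). WT 3 and hnRNPL-deficient 2 were the libraries with high *Xist*, so same-number pairs 2 and 3 differed in inferred sex. The sex covariate and the male libraries, both set by *Xist*, were chosen after seeing the data.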
